A study of Mus musculus with 14 samples.

Results

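The genes of cholesterol and fatty acid synthesis, 31 in number, were followed across primary mouse cortical neuron cultures treated for 1 h. They were taken by symbol from 45802 features in the table. The set held 6 enzymes from HMG-CoA synthesis to farnesyl diphosphate, 11 enzymes from squalene to cholesterol, and 5 genes that control the sterol regulatory element binding proteins (SREBPs). It also held 4 genes of acetoacetyl-CoA supply, sterol transfer and sterol efflux, and 5 genes of fatty acid synthesis. RNA was sequenced in 14 libraries of 5 groups, all of WT genotype, C57BL/6 strain and 12 days in vitro. The control group (1% DMSO) had 2 libraries, carrying replicate numbers 2 and 3. The other groups had 3 libraries each. They received 20 µM bicuculline, which blocks GABA-A receptors and so disinhibits the network, 4% (v/v) purified NMP peptides, released by the neuronal membrane proteasome (NMP), 4% (v/v) of such peptides after proteinase K (PK) cleavage, here called PK-cleaved NMP peptides, or 4% (v/v) NMP peptides with 100 µM APV, a blocker of NMDA receptors. No group received APV alone, and DMSO is named for the control group only, so APV cannot be told apart from its combination with peptides and solvent cannot be told apart from treatment. The series calls its replicates biological and does not say whether cultures or animals were replicated, and the p-values reflect only how far these libraries spread.

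Cells build cholesterol from acetyl-CoA through mevalonate, farnesyl diphosphate, squalene and lanosterol, and build fatty acids from the same acetyl-CoA through malonyl-CoA. When membrane sterol is low, SCAP escorts the SREBPs from the endoplasmic reticulum to the Golgi, where they are cleaved into transcription factors, and the INSIG proteins hold that complex back when sterol is high. SREBPs switch on most enzymes of both pathways together, usually beside the factors NF-Y and Sp1. Liver X receptors sense oxidised sterols and raise the efflux pumps ABCA1 and ABCG1. The brain makes its own cholesterol, because lipoproteins of the blood do not cross the blood-brain barrier, and both neurons and astrocytes express the enzymes.

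The cultures held neurons and glia. Markers of neurons in general passed the filter on low values (the lowest 40% of features by mean were dropped) in 5 of 5 cases, excitatory markers in 8 of 8 and inhibitory markers in 8 of 8. Astrocyte markers passed in 11 of 12 cases and markers of the oligodendrocyte lineage in 8 of 11, while microglial and vascular markers passed in 0 of 6 each. Library means of the general neuronal list lay between 6.54 and 6.94 and those of the astrocyte list between 4.51 and 4.78, on the deposited log2 scale. Gfap, the intermediate filament gene of reactive astrocytes, stood at 3.97 to 4.18 in 4 libraries (DMSO replicate 2, bicuculline replicate 2, NMP peptides replicate 3 and PK-cleaved NMP peptides replicate 3) and at 2.15 to 3.47 in the others. In such bulk samples, fewer cells of a type and less RNA per cell cannot be told apart. Each library had a value for 15824 to 16231 features, the libraries shared 1 distribution of values, and the read depth is unknown.

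All 31 genes had a value in every library and all 31 passed the filter, among 10877 genes tested. Most were abundant: 27 lay above the median of tested genes, 13 in the top 10% and 2 in the top 1%. The values were read as signal per length of exon, from sums weighted by exon length, because the counting method is not given. Levels were compared between genes on that reading. Hmgcs1, the HMG-CoA synthase (chromosome 13, 119690351 to 119708260, GRCm38), had the highest mean level at 9.02 ± 0.11 (SD, n = 14). It read 8.97 and 9.20 in DMSO, 9.15, 9.12 and 8.91 with bicuculline, 8.96, 8.96 and 8.96 with NMP peptides, 8.79, 9.09 and 9.04 with PK-cleaved NMP peptides, and 9.07, 8.93 and 9.12 with NMP peptides plus APV, in order of replicate number. Its groups overlapped except that the NMP peptide libraries lay just below both DMSO libraries.

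**Figure D1:**
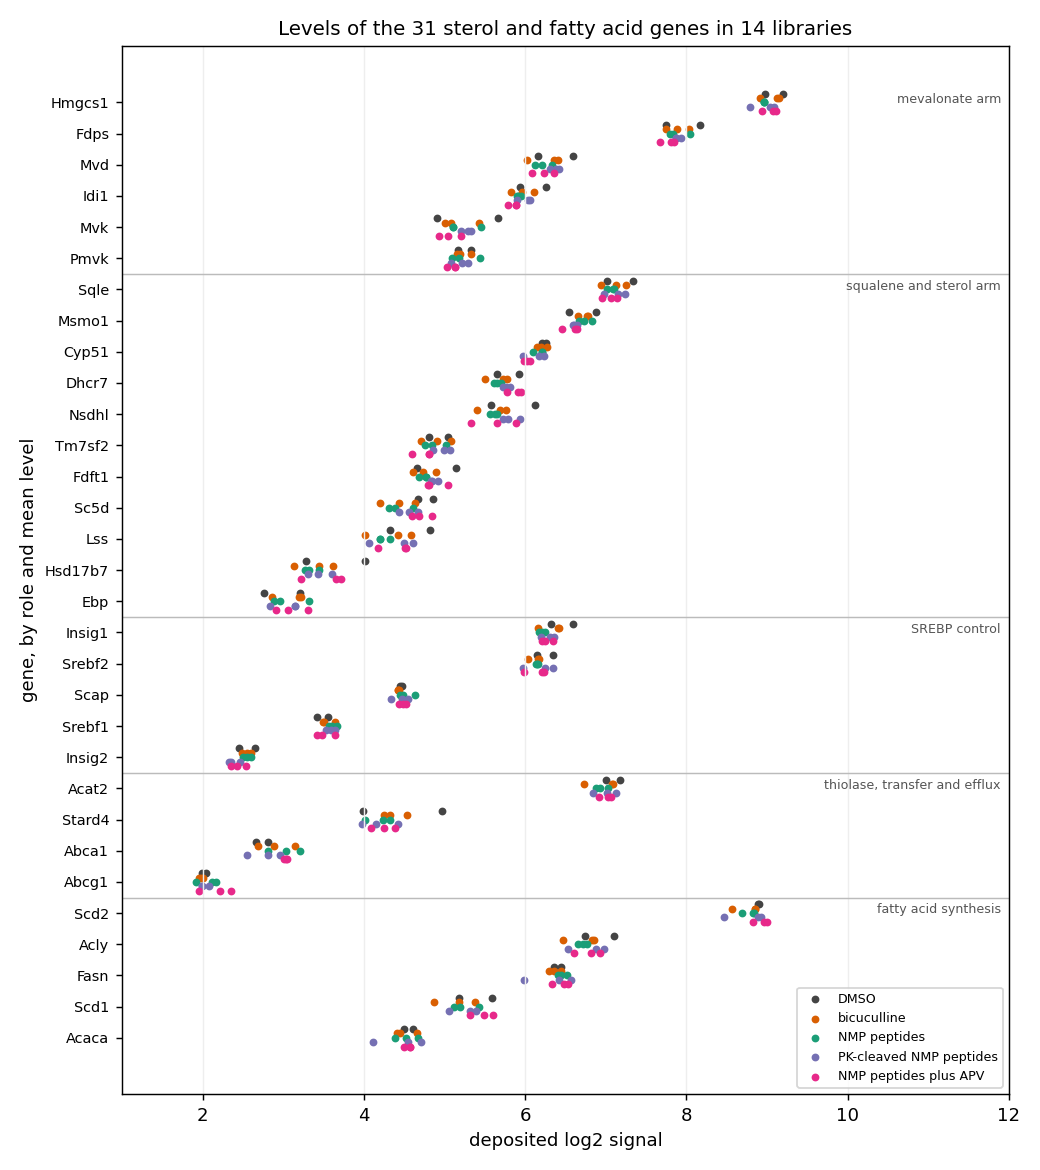
Deposited log2 signal (horizontal axis) of each of the 31 genes in each of the 14 libraries, as 1 point per library coloured by group, with genes ordered by role and mean level. Points of the groups lie on top of each other in most genes, and levels span from Abcg1, at a mean of 2.06, to Hmgcs1, at a mean of 9.02.

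Within the mevalonate arm, Fdps (farnesyl diphosphate synthase) followed at a mean level of 7.88, then Mvd (the decarboxylase that makes isopentenyl diphosphate) at 6.28 and Idi1 (its isomerase) at 5.96. The kinases Mvk and Pmvk both had a mean level of 5.20. In the sterol arm, Sqle, the squalene epoxidase and a slow step of the pathway, led at 7.10. Msmo1 (methylsterol monooxygenase, 6.67), Cyp51 (lanosterol demethylase, 6.15), Dhcr7 (the reductase of the last step, 5.75) and Nsdhl (a sterol dehydrogenase, 5.69) came next. Tm7sf2 (a sterol reductase, 4.88), Fdft1 (squalene synthase, 4.82), Sc5d (a sterol desaturase, 4.56) and Lss (lanosterol synthase, 4.38) were lower. Hsd17b7 (a ketosterol reductase, 3.46) and Ebp (a sterol isomerase, 3.06) were the lowest enzymes of this arm.

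Partner genes of the same step differed more in level than the groups did in any 1 of the 31 genes. Insig1 was higher than Insig2 in 14 of 14 libraries, by a mean log2 difference in level of 3.81 ± 0.15 (SD, n = 14), or 14.0-fold. Srebf2, whose product favours cholesterol genes, exceeded Srebf1, whose main products favour fatty acid genes, by 2.61 ± 0.17 (6.10-fold) in 14 of 14 libraries. Scd2 exceeded its paralog Scd1, both stearoyl-CoA desaturases, by 3.53 ± 0.13 (11.5-fold). How reads shared by these 2 paralogs were counted is not given in the sources used here. Scap stood at a mean level of 4.47. Among the remaining genes, Acat2 (acetoacetyl-CoA thiolase) stood at 6.99, Acly (ATP citrate lyase) at 6.78, Fasn (fatty acid synthase) at 6.40, Acaca (acetyl-CoA carboxylase) at 4.52 and the sterol carrier gene Stard4 at 4.28. The efflux pumps Abca1 and Abcg1 were low, at 2.90 and 2.06. In 10 of the 31 genes (Hmgcs1, Idi1, Fdps, Fdft1, Lss, Cyp51, Tm7sf2, Srebf1, Scap and Scd2), between 1.12% and 26.7% of the annotated exon bases lie in exons of another gene. Whether counting used strand is not given, so reads of such stretches could belong to either gene.

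The 31 genes varied between libraries of the same group. The within-group SD had a median of 0.14 on the log2 scale, from 0.07 in Scap to 0.28 in Stard4. Over all tested genes the median SD was 0.13, at a median level of 3.30 against 5.29 in the 31 genes. The SDs are thus not matched for level. The differences between libraries ran in the same direction for many genes at once. DMSO replicate 3 lay above DMSO replicate 2 in 27 of 31 genes, with a median log2 difference of 0.27, while 42.6% of all tested genes were higher there, with a median of -0.04. All 17 enzymes of the mevalonate and sterol arms were higher in DMSO replicate 3. Stard4 read 3.99 in replicate 2 and 4.97 in replicate 3, Mvk 4.91 and 5.67, and Hsd17b7 3.28 and 4.02. The 4 genes that were not higher were Srebf1, Scap, Abca1 and Scd2.

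Libraries of the treated groups also stood apart on these genes. Of the 31 genes, 25 lay above the group mean in bicuculline replicate 1 and 5 in bicuculline replicate 3. In the APV group 25 lay above it in replicate 3 and 8 in replicate 2. PK-cleaved NMP peptides replicate 1 had 9 above and replicate 2 had 24. In that pair the fatty acid genes differed most: all 5 were lower in replicate 1, with a median log2 difference of 0.45 (0.34 to 0.60), against 0.06 for the mevalonate arm. Fasn, for example, read 5.99, 6.57 and 6.43 in the PK-cleaved libraries, and Acaca 4.11, 4.71 and 4.55. The NMP peptide libraries were closest together, with 18, 14 and 10 genes above their mean.

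Marker levels moved with some of these library differences. In each group, the libraries with the highest and the lowest median deviation of the 31 genes from their group means were compared. In 4 of the 5 groups, the highest library also had the higher mean of the general neuronal list. The means were 6.93 against 6.72 in DMSO, 6.85 against 6.58 with bicuculline, 6.91 against 6.70 with PK-cleaved NMP peptides and 6.94 against 6.62 with APV. With NMP peptides the order was opposite, at 6.54 against 6.72. The astrocyte list was lower in the library with the higher sterol genes in 4 of the 5 groups, at 4.63 against 4.69 in DMSO, 4.58 against 4.78 with bicuculline, 4.52 against 4.66 with NMP peptides and 4.508 against 4.513 with PK-cleaved NMP peptides, and higher with APV (4.76 against 4.71). Gfap was lower there in the same 4 groups, at 2.68 against 4.13, 2.67 against 3.47, 2.41 against 4.15 and 2.15 against 2.45, and close with APV (2.77 against 2.76). Proliferation markers were higher in that library in each of the 5 groups, most in DMSO (2.22 against 1.63) and least with NMP peptides (1.71 against 1.64). Libraries between these extremes did not always follow. Bicuculline replicate 2 (Gfap 4.18) and PK-cleaved NMP peptides replicate 3 (3.97) had 19 and 20 of the 31 genes above their group means. The proliferation list was higher in the middle library than in the highest with NMP peptides (1.84) and with PK-cleaved NMP peptides (1.83). The NMP peptide libraries compared differed by a median log2 difference of only 0.06 over the 31 genes. The part of these markers in the differences between libraries was not tested.

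**Figure D2:**
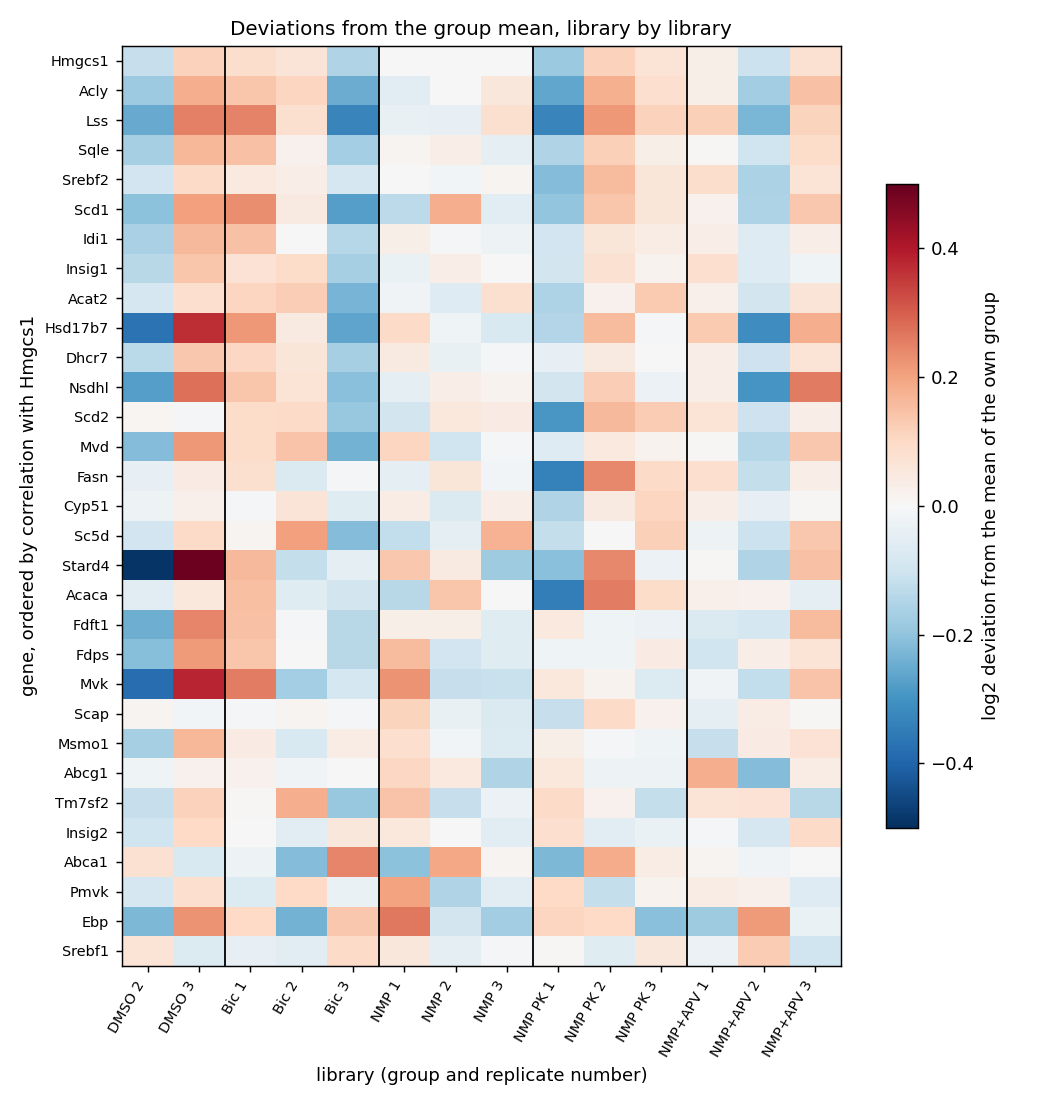
Log2 deviation of each gene (rows, ordered by their correlation with Hmgcs1) from the mean of its own group in each of the 14 libraries (columns, black lines between groups), red above and blue below the mean. The upper rows change colour together from column to column, most visibly between DMSO replicate 2 and DMSO replicate 3, while the lowest row, Srebf1, runs opposite.

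To describe this shared movement, group means were removed and each gene's deviations were correlated with those of Hmgcs1 over the 14 libraries. The libraries share their normalisation, and deviations sum to 0 within a group, so these coefficients are descriptions. Of the other 30 genes, 17 (56.7%) had r above 0.7, against 8.59% of tested genes outside the set, and the median r was 0.73 against 0.02. Without the DMSO libraries, over 12 libraries, 16 of the 30 (53.3%) had r above 0.7, against 11.8% of tested genes outside the set. Acly (r = 0.99, Spearman's rho 0.97), Lss (0.98, rho 0.94), Sqle (0.94, rho 0.93) and Srebf2 (0.94, rho 0.91) followed Hmgcs1 most closely. Scd1 (0.89), Idi1 (0.88), Insig1 (0.87), Acat2 (0.87), Hsd17b7 (0.86), Dhcr7 (0.85), Nsdhl (0.84), Scd2 (0.83) and Mvd (0.81) came next. Srebf1 ran against Hmgcs1 (r = -0.70, rho -0.79). The efflux pumps Abca1 (-0.00) and Abcg1 (0.17), Insig2 (0.03), Ebp (-0.12), Pmvk (-0.11), Tm7sf2 (0.17) and Msmo1 (0.19) did not follow it. Over all 465 pairs within the set the median r was 0.40, and 369 pairs were positive.

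A list of 73 further genes of sterol handling, SREBP and liver X receptor control and fatty acid supply, of which 62 were tested, moved less with Hmgcs1, with 8 (12.9%) above an r of 0.7 and a median of 0.17. Named after their values were seen, these 8 included the acyl-CoA synthetase genes Acsl6 (0.90), Acsl1 (0.87) and Acsl3 (0.83). The lipoprotein receptor gene Lrp8 (0.89), the desaturase gene Fads2 (0.79) and the elongase gene Elovl6 (0.75) were also among them. Other genes of the list ran as strongly against Hmgcs1: Syvn1 (-0.81), Mlycd (-0.80), Hacd1 (-0.78), Nr1h2 (-0.74) and Cyp7b1 (-0.72). Of the 62, 24 had an r below 0. Among tested genes outside the main set, 8.59% had an r above 0.7. Without the DMSO libraries, the share was 16.1% in the list against 11.8% of those tested genes. Between the DMSO libraries, 26 of the 62 were higher in replicate 3.

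Because many of the 31 genes moved together between libraries, their promoters were searched for letters bound by the factors named above. RefSeq promoters (GRCm38.p6), each from 250 bases before to 50 bases after a start, matched 24 of the 31 genes. A gene was counted where any of its listed starts held the letters on either strand. The box that NF-Y binds (CCAAT, which reads ATTGG on the other strand) was present in 20 of 24 (83.3%), against 41.1% of 27025 genes and 43.2% of 8422 tested genes. It was found in 13 of the 14 matched genes among Hmgcs1 and those with an r above 0.7, and in 7 of the 10 others. The GC box of Sp1 (GGGCGG) was present in 21 of 24 (87.5%), against 72.5% of tested genes. The E-box (CACGTG), which SREBPs can also bind, was present in 6 of 24 (25.0%) against 12.2%. A sterol regulatory element core (TCACNCCAC) was found in Hmgcs1 alone of the 24, against 1.40% of tested genes. A longer form of the element, which contains this core, was found in 0 of 24, against 0.0475% of tested genes. These are matches of letters in a window and do not show binding. The 250 bases before the start follow for 5 genes with 0 to 3 CCAAT boxes, 5′ to 3′ on the gene's strand. CCAAT boxes and the sterol element core are in capitals. Hmgcs1 (chr13:119690101-119690350, plus strand) holds 3 boxes and the core. Mvd (chr8:122443423-122443672, minus strand, r = 0.81) holds 2 and Sc5d (chr9:42264301-42264550, minus strand, r = 0.72) holds 1. Ebp (chrX:8193513-8193762, minus strand) holds 2 although its r was -0.12, and Scap (chr9:110333038-110333287, plus strand, r = 0.36) holds 0. For Hmgcs1 and Sc5d, the bases just after the listed start did not match an annotated transcript of the gene.
Hmgcs1: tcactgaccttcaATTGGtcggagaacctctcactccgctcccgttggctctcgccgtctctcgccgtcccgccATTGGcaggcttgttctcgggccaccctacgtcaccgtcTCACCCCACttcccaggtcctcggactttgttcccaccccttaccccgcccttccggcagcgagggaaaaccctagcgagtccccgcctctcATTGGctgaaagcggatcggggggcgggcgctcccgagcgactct
Mvd: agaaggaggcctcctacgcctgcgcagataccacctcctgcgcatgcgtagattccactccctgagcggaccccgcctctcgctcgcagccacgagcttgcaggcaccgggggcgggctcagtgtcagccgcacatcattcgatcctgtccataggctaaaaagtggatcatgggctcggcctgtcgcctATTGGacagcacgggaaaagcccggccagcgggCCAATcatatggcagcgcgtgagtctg
Sc5d: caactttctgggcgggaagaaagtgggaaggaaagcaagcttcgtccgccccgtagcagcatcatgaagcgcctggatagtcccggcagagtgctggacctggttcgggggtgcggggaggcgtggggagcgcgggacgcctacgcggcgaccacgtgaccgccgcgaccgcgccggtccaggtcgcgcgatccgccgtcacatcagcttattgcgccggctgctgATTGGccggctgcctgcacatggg
Ebp: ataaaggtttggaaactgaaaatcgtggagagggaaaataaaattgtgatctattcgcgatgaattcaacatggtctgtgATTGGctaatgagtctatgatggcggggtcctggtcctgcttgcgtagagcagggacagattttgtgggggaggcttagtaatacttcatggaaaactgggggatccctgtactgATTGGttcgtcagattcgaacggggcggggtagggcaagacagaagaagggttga
Scap: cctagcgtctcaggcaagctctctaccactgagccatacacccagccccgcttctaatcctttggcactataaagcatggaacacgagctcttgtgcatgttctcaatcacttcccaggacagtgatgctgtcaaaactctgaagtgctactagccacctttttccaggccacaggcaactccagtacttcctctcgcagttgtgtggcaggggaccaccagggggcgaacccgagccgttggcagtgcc

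No gene of the set passed the test in any of the 8 comparisons between groups. The test was limma, fitted to all 10877 genes with Benjamini-Hochberg adjustment, and a gene was called at an adjusted p under 0.05. In the comparison of bicuculline with DMSO, which asks what an hour of network disinhibition does, 0 of 31 were called, where 0.469% of all tested genes were. For NMP peptides against DMSO it was 0 of 31 (0.0184% of tested genes), for PK-cleaved NMP peptides against DMSO 0 of 31 (0% of tested genes), and for NMP peptides plus APV against DMSO 0 of 31 (0.625% of tested genes). Intact against PK-cleaved NMP peptides, which asks whether cleavage matters, gave 0 of 31 (0.0827% of tested genes). NMP peptides against NMP peptides plus APV, which asks what NMDA receptor block changes, gave 0 of 31 (1.43% of tested genes). Bicuculline against NMP peptides gave 0 of 31 (0.175% of tested genes), and NMP peptides plus APV against PK-cleaved NMP peptides gave 0 of 31 (1.39% of tested genes). At such shares, 0 calls among 31 genes is close to the background.

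At an unadjusted p under 0.05 the set held 1, 2, 0 and 2 genes in the comparisons of bicuculline, NMP peptides, PK-cleaved NMP peptides and NMP peptides plus APV with DMSO, against 3.14%, 2.02%, 1.05% and 11.5% of tested genes. It held 0 in NMP peptides against PK-cleaved NMP peptides (1.65%), 2 in NMP peptides against NMP peptides plus APV (15.8%), 0 in bicuculline against NMP peptides (2.12%) and 1 in NMP peptides plus APV against PK-cleaved NMP peptides (15.6%).

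The intervals describe the size of each change on the spread of these libraries. In each of the 8 comparisons, the 95% interval of all 31 log2 fold changes lay inside a 2-fold change in either direction. It lay inside 1.5-fold in 27, 25, 28 and 28 genes in the comparisons of bicuculline, NMP peptides, PK-cleaved NMP peptides and NMP peptides plus APV with DMSO. Between treated groups it lay inside 1.5-fold in all 31 genes, except that bicuculline against NMP peptides had 30, where Stard4 reached 0.60. For Hmgcs1 the interval with bicuculline ran from -0.24 to 0.19 and with NMP peptides from -0.34 to 0.09, around log2 fold changes of -0.03 (SE 0.10) and -0.13 (SE 0.10). These limits are for each gene alone and not for the set at once. Against DMSO they rest on 2 control libraries that differed on these genes. For Stard4 with PK-cleaved NMP peptides the interval ran from -0.76 to 0.16. Its log2 fold change was 0.19 without DMSO replicate 3 and -0.79 without DMSO replicate 2, beyond both ends.

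**Figure D3:**
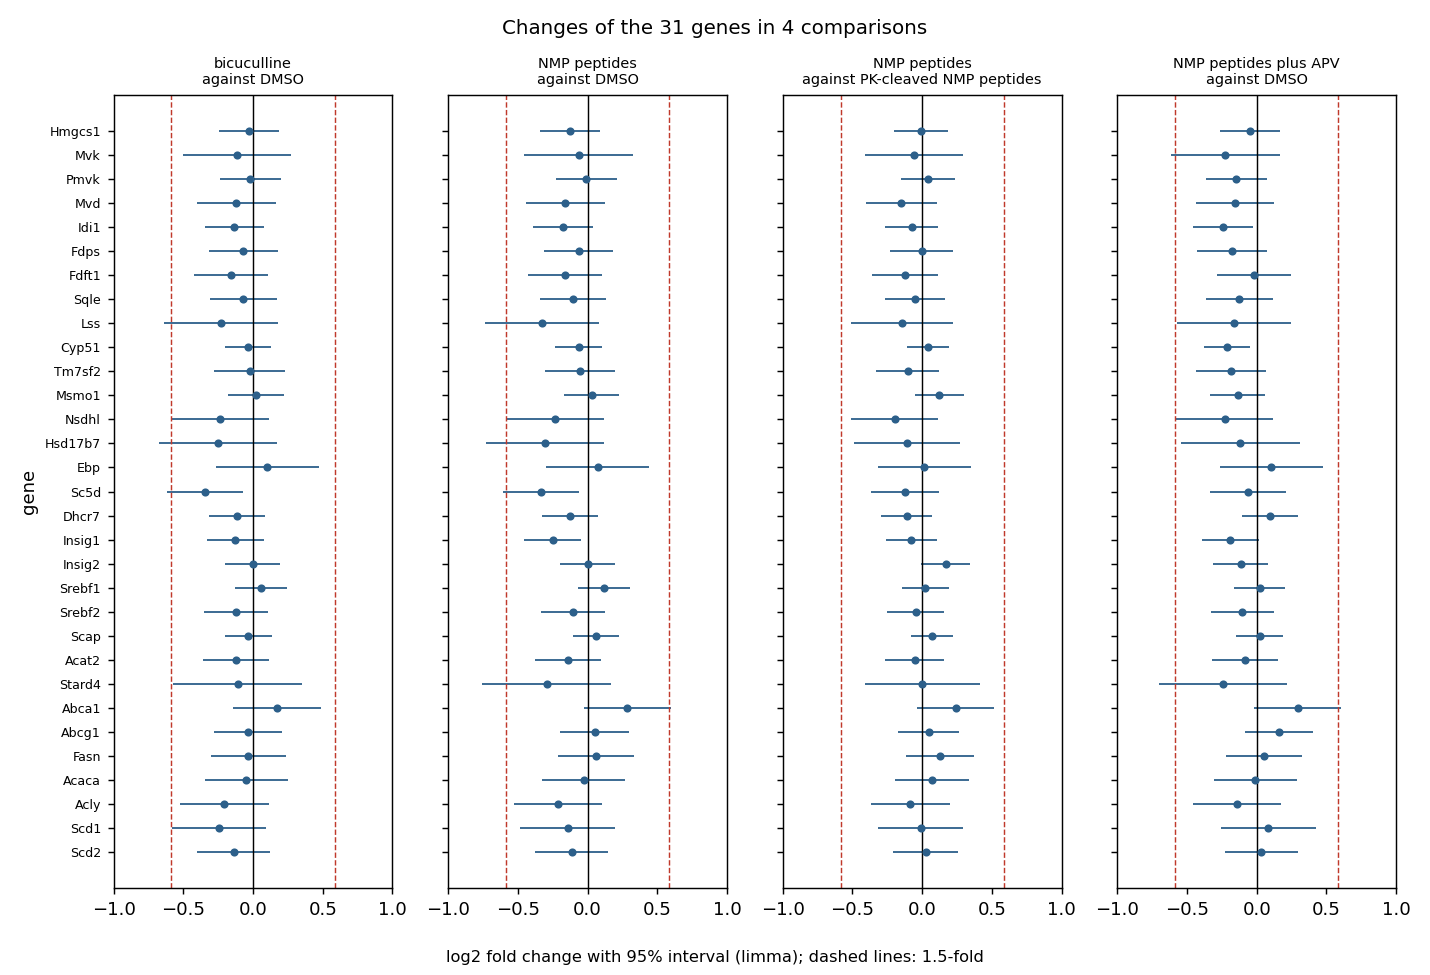
Log2 fold change with its 95% limma interval (horizontal axis) for each of the 31 genes in 4 of the comparisons, with dashed lines at 1.5-fold. Most points in the 3 comparisons with DMSO lie left of 0, and no interval reaches a 2-fold change.

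Against DMSO, most of the 31 genes had values below 0 in every treated group: 27 with bicuculline, 23 with NMP peptides, 26 with PK-cleaved NMP peptides and 22 with NMP peptides plus APV. The 4 comparisons share the same 2 control libraries. Median log2 fold changes were -0.11, -0.11, -0.07 and -0.11, against -0.03, -0.04, -0.04 and -0.05 over all tested genes, of which 62.9%, 64.7%, 66.0% and 63.7% lay below 0. By role, the mevalonate arm was below 0 in 6 of 6 genes in each of the 4 comparisons and the sterol arm in 9 of 11. This sign depended on 1 library. With DMSO replicate 2 as the only control, the medians were 0.03, 0.06, 0.06 and 0.04. With DMSO replicate 3 as the only control, they were -0.22, -0.24, -0.23 and -0.23. In the comparisons of treated groups with each other, medians lay between -0.01 and 0.02.

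**Figure D4:**
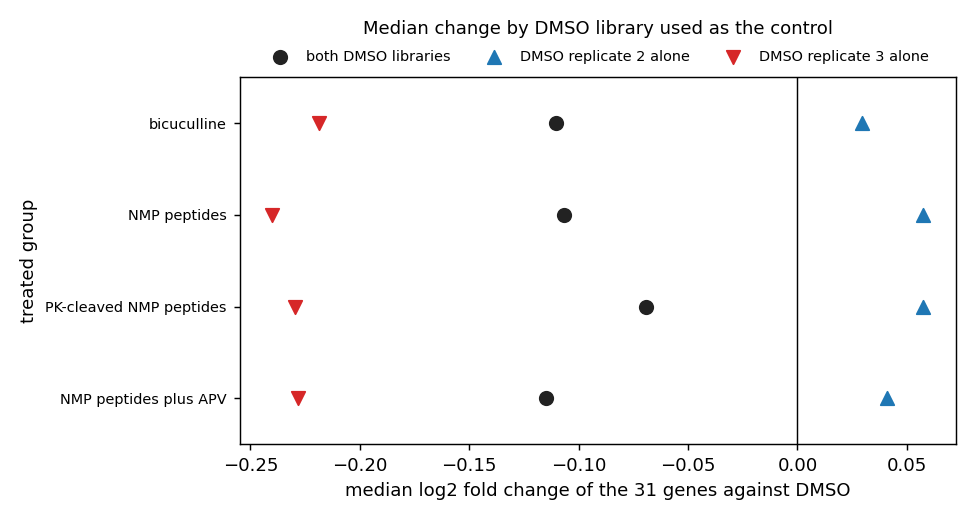
Median log2 fold change of the 31 genes against DMSO (horizontal axis) in the 4 treated groups, with both DMSO libraries, replicate 2 alone or replicate 3 alone as the control. The median is above 0 in all 4 groups with replicate 2 alone and near -0.23 with replicate 3 alone.

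Sc5d had the lowest unadjusted p-value of the set with bicuculline and with NMP peptides against DMSO, and Insig1 came next with NMP peptides. Sc5d read 4.67 and 4.86 in DMSO, 4.44, 4.63 and 4.20 with bicuculline, 4.31, 4.39 and 4.61 with NMP peptides, 4.44, 4.56 and 4.68 with PK-cleaved NMP peptides, and 4.68, 4.60 and 4.84 with APV. The bicuculline and the NMP peptide libraries all lay below the DMSO libraries, while the APV libraries did not. Its log2 fold change was -0.34 with bicuculline (SE 0.13, unadjusted p = 0.017, limma adjusted p = 0.996) and -0.33 with NMP peptides (SE 0.13, unadjusted p = 0.020, limma adjusted p = 0.971). NMP peptides against NMP peptides plus APV gave -0.27 (SE 0.11, limma adjusted p = 0.275), with overlapping libraries. Insig1, itself an SREBP target that feeds back on SREBP transport, read 6.32 and 6.59 in DMSO, 6.40, 6.42 and 6.16 with bicuculline, 6.17, 6.24 and 6.21 with NMP peptides, 6.19, 6.36 and 6.30 with PK-cleaved NMP peptides, and 6.35, 6.20 and 6.25 with APV. The NMP peptide libraries lay below both DMSO libraries (log2 fold change -0.25, SE 0.10, limma adjusted p = 0.971).

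Libraries of 2 groups did not overlap in few of the 31 genes. With bicuculline 3 genes lay below DMSO (Sc5d, Scap and Scd2) and 0 above, where 17.8% of tested genes did not overlap in either direction. With NMP peptides 5 lay below (Hmgcs1, Cyp51, Sc5d, Insig1 and Scd2) and 2 above (Srebf1 and Abca1), against 17.4%. With PK-cleaved NMP peptides 0 did, against 11%. With NMP peptides plus APV 3 lay below (Pmvk, Idi1 and Cyp51) and 1 above (Abca1), against 29.8%. Those shares are near the background or below it.

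The 3 genes with the widest spread gave large fold changes against DMSO without passing. Hsd17b7 read 3.28 and 4.02 in DMSO, 3.61, 3.44 and 3.14 with bicuculline, 3.44, 3.32 and 3.27 with NMP peptides, 3.30, 3.60 and 3.44 with PK-cleaved NMP peptides, and 3.66, 3.22 and 3.71 with APV. Every treated group overlapped DMSO, and the log2 fold change ranged from -0.31 with NMP peptides to -0.12 with APV. Stard4, whose DMSO values of 3.99 and 4.97 bracket nearly all others, read 4.53, 4.25 and 4.33 with bicuculline, 4.32, 4.23 and 4.01 with NMP peptides, 3.97, 4.43 and 4.15 with PK-cleaved NMP peptides, and 4.24, 4.09 and 4.38 with APV. Only 1 treated library, PK-cleaved NMP peptides replicate 1, lay outside the DMSO range. Its log2 fold change was -0.30 with PK-cleaved NMP peptides and -0.24 with APV (both SE 0.21), and 0.19 and 0.25 without DMSO replicate 3. Lss read 4.32 and 4.82 in DMSO, 4.58, 4.42 and 4.01 with bicuculline, 4.20, 4.20 and 4.32 with NMP peptides, 4.06, 4.60 and 4.50 with PK-cleaved NMP peptides, and 4.52, 4.18 and 4.52 with APV, with a log2 fold change of -0.33 (SE 0.19) for NMP peptides against DMSO.

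Scd1, the desaturase that makes monounsaturated fatty acids, read 5.18 and 5.59 in DMSO, 5.37, 5.19 and 4.87 with bicuculline, 5.12, 5.43 and 5.19 with NMP peptides, 5.06, 5.39 and 5.32 with PK-cleaved NMP peptides, and 5.49, 5.31 and 5.60 with APV. It was lowest in bicuculline replicate 3 and overlapped in every comparison (log2 fold change -0.24 with bicuculline, SE 0.16). The other fatty acid genes lay between -0.21 (Acly with NMP peptides) and 0.06 (Fasn with NMP peptides) on the log2 fold scale in the comparisons of bicuculline and NMP peptides with DMSO. None of the 5 had an unadjusted p under 0.05 in any comparison.

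With APV present, Cyp51 and Idi1 had the lowest unadjusted p-values against DMSO. Cyp51 read 6.21 and 6.26 in DMSO, 6.20, 6.27 and 6.14 with bicuculline, 6.21, 6.10 and 6.20 with NMP peptides, 5.98, 6.17 and 6.23 with PK-cleaved NMP peptides, and 6.06, 5.98 and 6.03 with APV. The APV libraries lay below those of DMSO and of NMP peptides without overlap (log2 fold change -0.21 against DMSO, SE 0.08, limma adjusted p = 0.308). Idi1 read 5.93 and 6.26 in DMSO, 6.11, 5.96 and 5.82 with bicuculline, 5.95, 5.92 and 5.90 with NMP peptides, 5.90, 6.06 and 6.03 with PK-cleaved NMP peptides, and 5.89, 5.79 and 5.89 with APV (log2 fold change against DMSO -0.24, SE 0.10, limma adjusted p = 0.367). Its APV libraries lay below those of DMSO, NMP peptides and PK-cleaved NMP peptides, by small margins. In NMP peptides against NMP peptides plus APV, 3 of the 31 genes lay above (Idi1, Cyp51 and Msmo1) and 2 below (Fdft1 and Dhcr7), where 21.8% of tested genes did not overlap.

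Dhcr7 was the gene closest to a call with APV. It read 5.65 and 5.92 in DMSO, 5.77, 5.73 and 5.50 with bicuculline, 5.70, 5.62 and 5.65 with NMP peptides, 5.73, 5.81 and 5.77 with PK-cleaved NMP peptides, and 5.91, 5.78 and 5.95 with APV. The NMP peptide libraries lay below the APV libraries (log2 fold change -0.22, SE 0.08, limma adjusted p = 0.231). With limma's array weights, which called 615 genes in that comparison in place of 156, Dhcr7 was called at -0.25 with an adjusted p of 0.0488. DMSO, with 1 library below and 1 library within the range with APV, did not separate from it (log2 fold change for NMP peptides plus APV against DMSO 0.10, SE 0.09).

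Between intact and PK-cleaved NMP peptides, 18 of 31 values lay below 0, with a median log2 fold change of -0.01. Libraries did not overlap in 5 of the 31 genes (16.1%), where 5.21% of tested genes did not. Of these, 3 lay below (Fdft1, Nsdhl and Dhcr7) and 2 above (Msmo1 and Insig2), and 4 of the 5 belong to the sterol arm. In this comparison 0 of the 31 genes had an unadjusted limma p under 0.05. Many of the 31 moved together between libraries, so these separations need not be independent. Nsdhl read 5.58 and 6.13 in DMSO, 5.76, 5.69 and 5.41 with bicuculline, 5.57, 5.65 and 5.63 with NMP peptides, 5.72, 5.94 and 5.78 with PK-cleaved NMP peptides, and 5.66, 5.33 and 5.88 with APV. Its log2 fold change for intact against cleaved peptides was -0.20 (SE 0.15), inside the spread of the DMSO pair. Insig2, the INSIG form that is less dependent on SREBP, read 2.45 and 2.65 in DMSO, 2.55, 2.49 and 2.61 with bicuculline, 2.61, 2.56 and 2.50 with NMP peptides, 2.47, 2.33 and 2.35 with PK-cleaved NMP peptides, and 2.43, 2.35 and 2.53 with APV (log2 fold change for intact against cleaved peptides 0.17, SE 0.08, limma adjusted p = 1). Bicuculline and NMP peptides were also close, with 15 of 31 below 0, a median of 0.00, and 1 gene (Scap) without overlap, against 4.7% of tested genes.

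The efflux pump Abca1 had the highest positive values in the set. It read 2.81 and 2.66 in DMSO, 2.88, 2.69 and 3.15 with bicuculline, 2.81, 3.21 and 3.03 with NMP peptides, 2.55, 2.97 and 2.82 with PK-cleaved NMP peptides, and 3.04, 3.01 and 3.03 with APV. The APV libraries lay above those of DMSO and of PK-cleaved NMP peptides, and the NMP peptide libraries lay just above those of DMSO. Log2 fold changes were 0.28 for NMP peptides against DMSO (SE 0.15, limma adjusted p = 0.971), 0.29 for NMP peptides plus APV against DMSO (SE 0.15, limma adjusted p = 0.459), 0.25 for NMP peptides plus APV against PK-cleaved NMP peptides (SE 0.13, limma adjusted p = 0.369) and 0.24 for intact against cleaved peptides (SE 0.13, limma adjusted p = 1). Abcg1 had 0.16 (SE 0.11) for NMP peptides plus APV against DMSO, with overlapping libraries. The astrocyte marker list, whose cells also use these pumps, had library means of 4.70 to 4.76 with APV against 4.51 to 4.64 with PK-cleaved NMP peptides, 4.63 to 4.69 in DMSO and 4.52 to 4.66 with NMP peptides. Mean Abca1 was 3.02 with NMP peptides and 3.03 with APV. The part of astrocyte markers in the Abca1 values was not tested.

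NMP peptides plus APV were also set against PK-cleaved NMP peptides, where 4 of the 31 genes lay below without overlap (Mvk, Idi1, Fdps and Tm7sf2) and 1 above (Abca1), against 20.2% of tested genes. Tm7sf2 read 4.81 and 5.04 in DMSO, 4.91, 5.08 and 4.71 with bicuculline, 5.01, 4.76 and 4.84 with NMP peptides, 5.07, 5.00 and 4.86 with PK-cleaved NMP peptides, and 4.81, 4.81 and 4.60 with APV (log2 fold change -0.23, SE 0.11, limma adjusted p = 0.302). Mvk read 4.91 and 5.67 in DMSO, 5.43, 5.00 and 5.08 with bicuculline, 5.45, 5.11 and 5.11 with NMP peptides, 5.33, 5.30 and 5.21 with PK-cleaved NMP peptides, and 5.04, 4.94 and 5.20 with APV (log2 fold change -0.22, SE 0.16, limma adjusted p = 0.549). In both genes the APV and PK-cleaved libraries were separate, while the APV libraries of Mvk lay within the range of DMSO. Ebp, Pmvk, Msmo1, Srebf1, Srebf2, Scap and Acat2 lay between -0.15 and 0.16 on the log2 fold scale in all 8 comparisons.

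Among the 62 tested genes of the wider pathway list, 0 were called in 7 of the comparisons. In NMP peptides plus APV against PK-cleaved NMP peptides, 2 of the 62 were called, both lower with APV, where 1.39% of all tested genes were called. The first was Mylip (chromosome 13, 45389742 to 45411940), a liver X receptor target that encodes a ubiquitin ligase degrading lipoprotein receptors. Its mean level of 1.63 was low, at percentile 16.6 of tested genes. Mylip read 1.94 and 1.57 in DMSO, 1.61, 1.96 and 1.90 with bicuculline, 1.18, 1.59 and 1.69 with NMP peptides, 2.02, 2.04 and 2.16 with PK-cleaved NMP peptides, and 1.28, 0.63 and 1.26 with APV. The APV libraries were lowest apart from NMP peptides replicate 1, and the PK-cleaved libraries were the 3 highest. The group means were 1.06 ± 0.37 (SD, n = 3) with APV and 2.07 ± 0.07 (SD, n = 3) with PK-cleaved NMP peptides, and Mylip fell by 1.02 on the log2 scale (SE 0.18), 2.03-fold (limma adjusted p = 0.0133). Without PK-cleaved NMP peptides replicate 3 the limma adjusted p was 0.0583, and without the 4 libraries highest in Gfap it was 0.0890. Against DMSO the APV group had -0.70 (SE 0.20, limma adjusted p = 0.170), and for intact against cleaved peptides the value was -0.59 (SE 0.18, limma adjusted p = 1). Abca1, a target of the same receptors, had the opposite sign in the comparison of NMP peptides plus APV with PK-cleaved NMP peptides, and did not pass.

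The second was Tmem97 (chromosome 11, 78541817 to 78550735), which encodes a membrane protein involved in cholesterol trafficking. Tmem97 read 4.41 and 4.75 in DMSO, 4.69, 4.62 and 4.50 with bicuculline, 4.47, 4.50 and 4.45 with NMP peptides, 4.70, 4.55 and 4.59 with PK-cleaved NMP peptides, and 4.17, 4.21 and 4.33 with APV. The APV libraries were below those of every other group. Tmem97 fell by 0.38 on the log2 scale (SE 0.09, 1.30-fold) relative to PK-cleaved NMP peptides, with a limma adjusted p of 0.0451. The call was lost without any 1 of the 6 libraries compared (adjusted p 0.0607 to 0.178). Marker levels differed in the same comparison: the inhibitory neuron list had library means of 4.72 to 4.79 with APV against 4.90 to 4.95 with PK-cleaved NMP peptides, and the proliferation list 1.96 to 2.43 against 1.61 to 1.83. Their part in the Mylip and Tmem97 values was not tested.

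**Figure D5:**
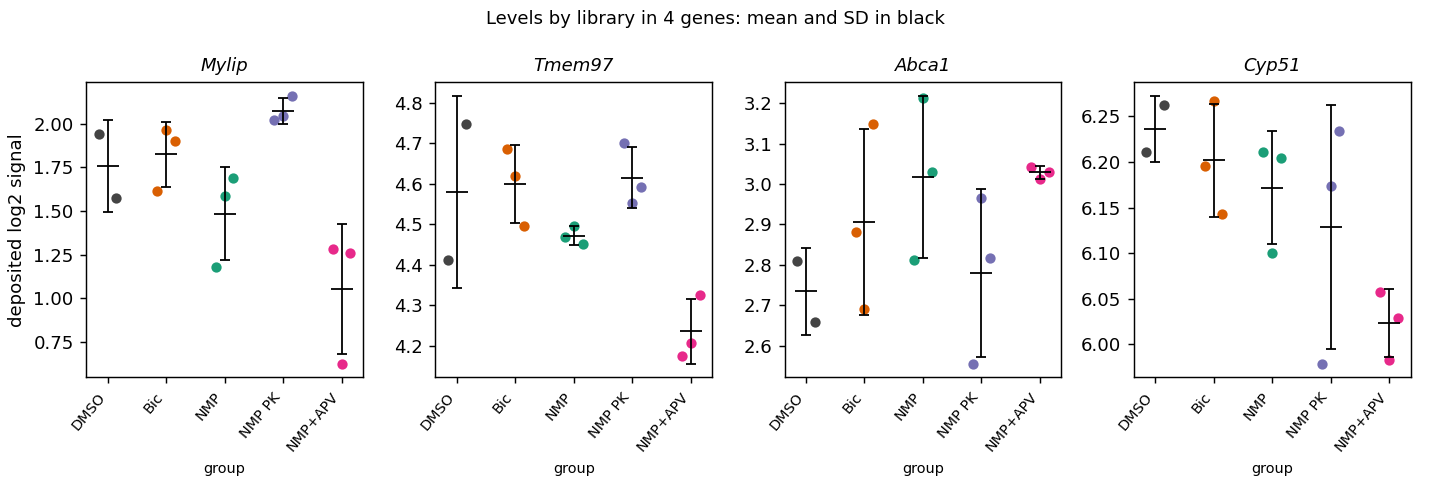
Deposited log2 signal (vertical axis, a separate scale in each panel) of Mylip, Tmem97, Abca1 and Cyp51 by group, with 1 point per library and the mean and SD in black. Mylip and Tmem97 are lowest with NMP peptides plus APV, where the mean of Mylip is 1.06 against 2.07 with PK-cleaved NMP peptides.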

How the data were processed

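The values are log2 signals deposited by the authors in 1 table. Raised to base 2 and weighted by exon length in kilobases, they summed to 1180661 to 1266382 per library (8355257 to 9082479 with base e). Every library had the median 2.19 and the maximum 12.0, a sign of quantile normalisation, so depth and whole reads could not be recovered. Per the submitters' processing notes, the build was GRCm38.p6. No aligner, counter or annotation is given in the sources used here.

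Columns were matched to samples by name. Of 18128 features with a value, the lowest 40% by mean were dropped, with missing values at the table minimum for this ranking, which left 10877. limma 3.58.1 (R 4.3.3) fitted 1 mean per group to all 14 libraries, with moderated variances that follow a trend with level. P-values are two-sided, with Benjamini-Hochberg adjustment in each of the 8 comparisons over all genes. The procedure was run on simulated data in which genes varied independently, so genes that move together were not covered. The genes and lists were chosen with earlier results of these data known. Values in every library are given for the 13 genes among the 3 largest absolute log2 fold changes in any comparison, for Hmgcs1 and Cyp51, named after their values were seen, and for called genes of the wider list.

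The replicate numbers were checked for pairing by correlating libraries' deviations from their group means over genes. Pairing was accepted where each of 3 or more pairs exceeded 0.1. This held for NMP peptides with PK-cleaved NMP peptides (0.510, 0.499 and 0.613), from the data and not the labels. Alternatives were no filter, dropping 60%, missing values at the table minimum, median centring, a replicate block, only the compared groups, array weights, a fit lacking the variance trend, and removal of each library in turn. Removal of the 4 libraries highest in Gfap and a block over the paired groups alone were chosen after seeing the data.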

Additional observations from a re-analysis of the deposited data

How the results depend on the processing

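The count of called genes among the 31 was 0 under every alternative run in all 8 comparisons, leaving out each library included (0 to 0), except 1 (Dhcr7) with array weights when NMP peptides were compared without and with APV. With the replicate block the count was 0 in each comparison, and with the block over NMP peptides and PK-cleaved NMP peptides alone it was 0. Leaving out single libraries moved the log2 fold change of Hsd17b7 between -0.62 and 0.12 with bicuculline, -0.68 and 0.064 with NMP peptides, and -0.57 and 0.17 with PK-cleaved NMP peptides, and that of Stard4 between -0.79 and 0.19 with PK-cleaved NMP peptides and -0.73 and 0.25 with NMP peptides plus APV, all against DMSO. The positive ends came without DMSO replicate 3. After removal of the 4 libraries highest in Gfap, which leaves DMSO replicate 3 alone, the set's median against DMSO was -0.25, -0.25, -0.24 and -0.23 with bicuculline, NMP peptides, PK-cleaved NMP peptides and NMP peptides plus APV, and Abca1 in bicuculline against NMP peptides went from -0.11 to 0.0028. The median for intact against cleaved peptides was -0.10 without PK-cleaved NMP peptides replicate 1. Tmem97 was not called under any alternative except array weights, and Mylip was called in all but 2 (adjusted p = 0.0890 without the Gfap libraries and 0.0583 without PK-cleaved NMP peptides replicate 3, limma). The causes were not tested. The pseudocount alternative was not run, because the values are already log2.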
